A study of Mus musculus and synthetic RNA with 74 samples.

Results

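Larger one-sided bulges were the predicted RNA folds in which position 15, the adenosine that METTL16 methylates, lay unpaired in a bulge of at least 2 nt. A bulge is a run of unpaired nucleotides on one strand of a helix, closed on both sides by base pairs, with no unpaired nucleotide opposite. The rule was read from the dot-bracket string of each structure, in which a dot is an unpaired nucleotide and a pair of brackets is a base pair, and it used no measured value. It took 246 of the 36835 structures in the table. For comparison, position 15 lay in a 1-nt bulge in 269 structures and in an interior loop, which has unpaired nucleotides on both strands, in 934 structures.

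The structures came from an in vitro methylation experiment with chemically synthesized RNAs of 30 nt, in which a constant nonamer at positions 12 to 20 was flanked by 11 random nucleotides on the 5′ side and 10 on the 3′ side. Full-length recombinant human METTL16 and the methyl donor S-adenosylmethionine were added to the RNA pool in duplicate reactions. The library labels carry the numbers 11 and 12, which were taken as reaction numbers, although no label names a reaction. Each reaction supplied an input library, from RNA that saw no antibody, and a library of RNA pulled down by an anti-m6A antibody (m6A-IP), which gave 2 input and 2 m6A-IP libraries. Both groups therefore had been exposed to the enzyme, and no pool without METTL16 was analysed here, so binding of the antibody to unmethylated RNA cannot be told apart from methylation. The fold of each read was predicted by RNAfold as its minimum free energy structure, and the reads of all RNAs with the same fold were added together. A value thus belongs to a predicted fold and to a mixture of flanking sequences, not to 1 RNA, and the folds were not measured.

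METTL16 is a methyltransferase that places N6-methyladenosine (m6A) on the U6 snRNA and on hairpins of the MAT2A mRNA, which encodes the enzyme that makes S-adenosylmethionine. In both targets the nonamer is part of a folded RNA. A bulge bends a helix and leaves its nucleotides free of pairing, while helices on either side hold it in place.

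The sequences below show where the bulges sit in the library RNA, written 5′ to 3′ with n for a random nucleotide. Capitals mark the methylated adenosine in the first line, the bulged nucleotides in the next 2 lines, and the nonamer bases that form the helix 3′ of the bulge in the last 3 lines.
library RNA: nnnnnnnnnnnuacAgagaannnnnnnnnn
3-nt bulge, positions 13 to 15: nnnnnnnnnnnuACAgagaannnnnnnnnn
4-nt bulge, positions 12 to 15: nnnnnnnnnnnUACAgagaannnnnnnnnn
inner helix from position 16 to 17: uacaGAgaa
inner helix from position 16 to 18: uacaGAGaa
inner helix from position 16 to 19: uacaGAGAa

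All 246 structures were single hairpins. In 238 of them the bulge was on the opening (5′) strand, ended at position 15 and was followed directly by a helix that began at G16. That inner helix, between the bulge and the hairpin loop, had 2 bp in 60 structures, 3 bp in 154 and 4 bp in 24. The outer helix, on the other side of the bulge, had from 1 to 7 bp, and the hairpin loop had from 3 to 8 nt. In the other 8 structures the bulge was on the closing (3′) strand. Position 15 was the 3′-most nucleotide of the bulge in 243 structures, the 5′-most in 2 and a middle nucleotide in 1. The bulges ran from 3 to 12 nt, with 82 structures at 3 nt, 51 at 4 nt and 113 at 5 nt or more. No member had a 2-nt bulge, although the table held 2043 bulges of 2 nt at other positions.

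Sequencing depth was uneven. The structures held 20454163 and 18106811 reads in inputs 11 and 12, 22118622 reads in m6A-IP 11 and only 1154715 reads in m6A-IP 12. The median member had 92.5, 84.5 and 153 reads in the first 3 of these libraries and 8 reads in m6A-IP 12, where 2 members had no read and 43 had fewer than 4. The fit weighted both m6A-IP libraries equally, so the shallow library carries as much of each single value as the deep one, and sums over many structures are the firmer measurement in m6A-IP 12. The confidence intervals given below cover counting error only, since reads carried no molecular identifier.

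As a class, the larger bulges took a larger share of the m6A-IP libraries than of the inputs, and the gain was smaller than that of the 1-nt bulge. They held 0.309% of the reads in input 11 (95% Wilson interval 0.307 to 0.312) and 0.308% in input 12 (0.306 to 0.311). In the m6A-IP libraries they held 0.432% (0.43 to 0.435) and 0.432% (0.42 to 0.444), a share 1.40-fold higher in each reaction. Both m6A-IP libraries stood above both inputs and their counting intervals did not overlap those of the inputs. Relative to all other structures, the log2 difference between m6A-IP and input was 0.49 (0.48 in reaction 11 and 0.49 in reaction 12). The exact two-sided permutation test over the 4 libraries gave p = 0.33, the smallest value that 2 libraries against 2 can give, and the same value was found for each log2 difference between classes given below unless another p is printed.

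Values in the table are reads divided by a size factor for each library, and the scaled totals of the m6A-IP libraries, 10157021 and 8003225, differed from each other and lay below the 10608834 and 10586854 of the inputs. On the deposited scale the members summed to 32811 and 32623 in the inputs and to 43905 and 34564 in m6A-IP 11 and 12. The log2 ratio was 0.42 in reaction 11 and 0.08 in reaction 12, with a mean of 0.25. The shares of reads and the differences between classes do not depend on the size factors, and the ratios below are given as shares for that reason.

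Position 15 alone in a 1-nt bulge gave a much larger gain. The 269 structures of that kind held 0.388% and 0.387% of the input reads and 1.14% of the reads in each m6A-IP library, which was 2.94-fold and 2.93-fold higher. The gain of the larger bulges was lower by a log2 difference of −1.07 (−1.07 and −1.06 in the reactions), or −0.54 as a difference of medians over structures. For interior loops the share rose 1.19-fold in both reactions, from 2.34% and 2.32% to 2.77% and 2.75%. The larger bulges were above the interior loops by 0.24 on the log2 scale (0.23 and 0.24), or by 0.12 as a difference of medians over structures. Among the 3 settings of an unpaired 15A inside a helix, the order was therefore 1-nt bulge, larger bulge, interior loop, with no overlap between the reactions.

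Single structures were tested with limma on log2(value + 5), with Benjamini-Hochberg adjustment over all 36835 structures, and a structure was called enriched or depleted at an adjusted p below 0.1. Of the 246 members, 74 (30.1%) were enriched in m6A-IP, against 12.5% of all structures, and 14 (5.69%) were depleted, against 27.2%. The remaining 158 passed in neither direction. In 122 members both m6A-IP values were above both inputs, against 25.3% of all structures, and in 42 both were below, against 47.3%, while in 82 the groups overlapped. Log2 fold changes ran from −1.65 to 1.71 with a median of 0.27, while the median over all structures was −0.27. With values scaled to the library totals instead, which moved the median of all structures to −0.06, the counts were 120 enriched and 10 depleted. Those were 48.8% and 4.07% of the members, against 22.5% and 24.8% of all structures. The 1-nt bulges had 156 enriched structures (58.0%) and 7 depleted, and the interior loops had 203 (21.7%) and 81 (8.67%). These calls were not stable when 1 library was left out, which leaves 1 library in a group, so only effect sizes are given. The median log2 fold change of members was 0.26 without input 11 and 0.27 without input 12. It was 0.10 without m6A-IP 11 and 0.44 without m6A-IP 12. Medians over all structures were −0.26, −0.27, −0.40 and −0.11 in the same order.

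Among the features compared, the length of the inner helix went with the largest differences between members. Opening-strand bulges followed by an inner helix of 2 bp (G16 and A17) summed to deposited values of 6917 and 6948 in the inputs and 5921 and 4540 in the m6A-IP libraries. Their share of reads was 0.894-fold and 0.864-fold that of the inputs in reactions 11 and 12, so that both m6A-IP libraries were below both inputs. With 3 bp (G16 to G18) the sums were 22808 and 22532 in the inputs and 33448 and 26337 in m6A-IP, a share 1.53-fold and 1.55-fold higher. With 4 bp (G16 to A19) they were 1450 and 1517 against 2725 and 2072, a share 1.96-fold and 1.81-fold higher. For 3 and 4 bp both m6A-IP libraries lay above both inputs.

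In the fit without pairing, every one of the 14 depleted members had the 2-bp inner helix, in which 1 of 60 structures was enriched. With 3 bp, 61 of 154 were enriched and none was depleted by limma, and with 4 bp 12 of 24 were enriched and none was depleted. With the libraries paired by reaction the enriched and depleted counts were 0 and 15 at 2 bp, 54 and 1 at 3 bp, and 10 and 0 at 4 bp. Over all structures 12.5% were enriched and 27.2% depleted in the fit without pairing, and 11.6% and 29.5% with pairing. The depleted part at 2 bp was thus no larger than that of all structures in either fit. Median log2 fold changes were −0.40, 0.47 and 0.69 at 2, 3 and 4 bp. The log2 difference in summed value was 0.81 between 3 and 2 bp (0.78 and 0.84 in the reactions), 1.10 between 4 and 2 bp (1.13 and 1.06) and 0.29 between 4 and 3 bp (0.36 and 0.23). The step from 2 to 3 bp was also present within each bulge size, at 0.76 for 3 nt, 0.99 for 4 nt and 0.79 for 5 nt or more. Single-structure calls by limma moved with the libraries left out, which leaves 1 library in a group, so only effect sizes are given. Median log2 fold changes at 2, 3 and 4 bp were −0.58, 0.30 and 0.63 without m6A-IP 11. Without m6A-IP 12 they were −0.21, 0.61 and 0.77 in the same order. The medians over all structures in these fits were −0.40 and −0.11.

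Because inner helices of different length were unevenly spread over the classes, the larger bulges were also set against the others at equal inner length. With position 15 as the last unpaired nucleotide before the inner helix, the share of 1-nt bulges was 1.43-fold and 1.41-fold higher at 2 bp, 4.51-fold and 4.42-fold higher at 3 bp, and 7.22-fold and 7.37-fold higher at 4 bp, the last over 5 structures. The larger bulges were lower than these by −0.69, −1.54 and −1.95 on the log2 scale. The gap was thus wider with a longer inner helix. Interior loops gave 1.07-fold in both reactions at 2 bp, 1.88-fold at 3 bp, and 2.03-fold and 2.02-fold at 4 bp. At equal inner length the larger bulges were below the interior loops, by −0.28, −0.29 and −0.10 at 2, 3 and 4 bp, the reverse of the order over the whole classes. These loops were not limited by the number of unpaired nucleotides on the strand of position 15, whereas every larger bulge had at least 3. The reversal thus cannot be assigned to loop type. In pairs differing by 1 nucleotide opposite the bulge, given below, the loop was higher in 17 of 19 at 2 bp. At 3 bp the bulge was higher in 21 of 34. The interior loops also included 157 structures with an inner helix of 1 bp, at 1.28-fold and 1.26-fold, a length that no larger bulge had.

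Differences by bulge size were smaller. The 3-nt bulges, nearly all of A13, C14 and A15, had summed values of 16150 and 16028 in the inputs and 19868 and 15837 in m6A-IP, with a share 1.28-fold and 1.31-fold higher. The 4-nt bulges summed to 7301 and 7291 against 10209 and 8123, a share 1.46-fold and 1.47-fold higher. Bulges of 5 nt or more summed to 9360 and 9304 against 13828 and 10604, with a share 1.54-fold and 1.51-fold higher. On the deposited scale m6A-IP 12 was below both inputs for the 3-nt bulges, whereas for the larger sizes both m6A-IP libraries were above both inputs. The log2 difference was 0.18 between 4 and 3 nt, 0.24 between 5 nt or more and 3 nt, and 0.06 between 5 nt or more and 4 nt.

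Among the 3-nt bulges, 16 of 82 structures were enriched and 10 depleted, among the 4-nt bulges 17 of 51 and 4, and among those of 5 nt or more 41 of 113 and none by limma, or 35 and 3 with libraries paired by reaction. Of all structures, 12.5% were enriched and 27.2% depleted without pairing. The depleted part was thus below that of all structures at every size. Inner helices of 2 bp were unevenly spread over the sizes, with 39 at 3 nt, 15 at 4 nt and 6 at 5 nt or more. When only structures with an inner helix of 3 bp were kept, 5 nt or more differed from 3 nt by −0.02 (0.02 and −0.05 in the reactions; exact permutation p = 1.0), a difference with opposite signs in the reactions. The 4-nt bulges were above the 3-nt bulges by 0.13 at that inner length.

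Within the largest size group the 5-nt bulge stood highest. It had 33 structures, with summed values of 3511 and 3484 in the inputs and 5841 and 4616 in m6A-IP, and its share was 1.74-fold and 1.75-fold higher. Longer bulges had smaller gains, with shares 1.56-fold and 1.40-fold higher at 6 nt, 1.44-fold and 1.53-fold at 7 nt, and 1.35-fold and 1.19-fold at 8 nt. They were 1.27-fold and 1.34-fold higher at 9 nt, 1.13-fold and 1.24-fold at 10 nt, and 1.25-fold and 1.06-fold at 11 nt, without a steady order from one size to the next. The reactions' values overlapped between 6 and 7 nt, and the single 12-nt structure had 3 reads in m6A-IP 12. The 5-nt bulges exceeded those of 8 nt or more by 0.48 on the log2 scale and the 3-nt bulges by 0.43, or by 0.23 at an inner helix of 3 bp.

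Structures that differ only in bulge size give a closer comparison. In these the inner helix, the hairpin loop and the whole of positions 16 to 30 have the same fold, and the 5′ strand of the outer helix is moved away from position 15 by the added bulge nucleotides. There were 40 such series, with 150 larger bulges, and 36 of the series also had a 1-nt bulge. The first lines below give one of them, with an outer helix of 3 bp, an inner helix of 3 bp and a hairpin loop of 4 nt. They are shown because the fold from position 16 to 30 stays the same while the bulge grows, although the 5′ tail shortens and the 5′ strand of the outer helix leaves the nonamer for random sequence. The character at position 15 is the last dot before the second block of opening brackets.
1-nt bulge: ...........(((.(((....))))))..
3-nt bulge: .........(((...(((....))))))..
4-nt bulge: ........(((....(((....))))))..
5-nt bulge: .......(((.....(((....))))))..
6-nt bulge: ......(((......(((....))))))..

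The 1-nt member of this series had deposited values of 1282 and 1243 in the inputs and 8493 and 6882 in m6A-IP 11 and 12, a log2 fold change of 2.59 (SE 0.18). With 3 nt the values were 579 and 567 against 1098 and 804, with a log2 fold change of 0.71 (SE 0.19, limma adjusted p = 0.046). With 4 nt they were 411 and 401 against 859 and 818, a log2 fold change of 1.04 (SE 0.14). All 3 structures had both m6A-IP values above both inputs. The 5-nt bulge had 254 in each input and 587 and 402 in m6A-IP (log2 fold change 0.92), and the 6-nt bulge had 175 and 174 against 377 and 222 (0.71). Log2 fold changes were 0.89, 0.81, 0.50, 0.56, 0.31 and −0.11 from 7 to 12 nt. The large drop in this series was between 1 and 3 nt, and the larger sizes lay close to each other by comparison.

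A second series had the same inner helix and loop with an outer helix of 4 bp. Its 1-nt bulge had values of 1327 and 1301 against 6455 and 4720, a log2 fold change of 2.07. Its 3-nt bulge had 1611 and 1556 against 1898 and 1469, a log2 fold change of 0.08, with m6A-IP 12 below both inputs. Its 4-nt bulge had 787 and 778 against 1114 and 832, a log2 fold change of 0.30. These were the most abundant opening-strand members of their sizes, as was its 5-nt bulge with a log2 fold change of 0.26. The larger bulges had log2 fold changes of 0.13 at 6 nt, 0.08 at 7 nt, −0.28 at 8 nt and −0.48 at 11 nt, and no larger bulge of that series passed the limma threshold. In another series, with an outer helix of 3 bp and a loop of 5 nt, the 1-nt bulge had 1.81, the 3-nt bulge 0.54, the 4-nt bulge 0.58 and the 5-nt bulge 1.06. From 6 to 9 nt the values were 0.77, 0.60, 0.54 and 0.66. The 10-nt and 11-nt bulges had −0.51 (SE 0.50) and −0.28 (SE 0.40), each on 2 reads in m6A-IP 12.

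Across all series, the 1-nt bulge had the higher log2 fold change than the 3-nt bulge in 32 of 32 matched pairs (median of the larger minus the 1-nt bulge, −1.05), than the 4-nt bulge in 26 of 26 (−1.41) and than the 5-nt bulge in 19 of 20 (−1.34). From 6 to 8 nt it was the higher one in 13 of 13 pairs at each size, with medians of −1.93, −1.82 and −1.91. Taken reaction by reaction, the 1-nt bulge was above the 3-nt bulge in 32 of 32 pairs in reaction 11 and in 31 of 32 in reaction 12. The pairs share libraries and are not replicates, so the counts are descriptions.

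The exception at 5 nt was a series with an inner helix of 2 bp and a loop of 6 nt. Its 1-nt bulge had 864 and 820 in the inputs and 1544 and 1178 in m6A-IP, a log2 fold change of 0.68. Its 5-nt bulge had 21.8 and 18.1 in the inputs and 35.4 and 41.6 in m6A-IP, a log2 fold change of 0.80 (SE 0.26, limma adjusted p = 0.070), on 6 reads in m6A-IP 12. The same structure was the single enriched member with a 2-bp inner helix, a call that was lost when libraries were paired by reaction.
5-nt bulge, 2-bp inner helix: .......(((.....((......)))))..

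Among the larger bulges themselves, the 5-nt bulge exceeded the 3-nt bulge in 15 of 20 matched pairs (median difference 0.20), in 18 of 20 in reaction 11 and in 13 of 20 in reaction 12. The 4-nt bulge was above the 3-nt bulge in 16 of 27 pairs, with a median difference of 0.04. The 5-nt bulge was above the 6-nt bulge in 12 of 13 pairs, above the 8-nt bulge in 13 of 13 and above the 10-nt bulge in 10 of 10, the last with a median difference of −0.58 for the longer one. For 5 against 8 nt the counts were 13 of 13 in reaction 11 and 10 of 13 in reaction 12. Between longer neighbours no decline was seen in every step, since the 7-nt bulge was above the 6-nt bulge in 8 of 13 pairs (median difference 0.12) and the 9-nt bulge above the 8-nt bulge in 7 of 12 (0.10). Thus 3 and 4 nt were hardly different at equal fold of the remainder, and bulges beyond 5 nt gained less than the 5-nt bulge.

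Members with an outer helix of 2 or 3 bp gained more than those with a longer one. Opening-strand bulges with an outer helix of 2 bp had shares 1.69-fold and 1.75-fold higher in m6A-IP (42 structures, 18 enriched and none depleted by limma), and those with 3 bp 1.82-fold and 1.86-fold (94 structures, 45 enriched and 1 depleted). With 4 bp the shares were 1.30-fold and 1.26-fold higher (53 structures, 6 enriched and 3 depleted), and with 5 bp or more 1.10-fold and 1.09-fold (36 structures, 1 enriched and 9 depleted). Of all structures, 12.5% were enriched and 27.2% depleted. The enriched part at 4 bp was thus close to that of all structures, and the depleted part at 5 bp or more was no larger. The 13 structures with an outer helix of 1 bp had 1.42-fold and 1.58-fold. The log2 difference was 0.52 between 3 and 4 bp, 0.75 between 3 bp and 5 bp or more, and 0.09 between 3 and 2 bp. With the inner helix held at 3 bp the shares were 1.9-fold and 1.97-fold at 2 bp, 1.94-fold and 1.99-fold at 3 bp, 1.40-fold and 1.38-fold at 4 bp, and 1.23-fold and 1.24-fold at 5 bp or more.

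The same order was found where only the outer helix changed, with the 3-nt bulge, the inner helix and the loop unchanged and no break in the outer helix. An outer helix of 3 bp had the higher log2 fold change than one of 4 bp in 8 of 8 matched pairs (median of the longer minus the shorter, −0.51), and 4 bp was above 5 bp in 4 of 5 (−0.16) and 5 bp above 6 bp in 3 of 3 (−0.24). The structures below show this with a 4-nt loop; those of 4 and 5 bp were also the most abundant members.
outer helix of 3 bp: .........(((...(((....))))))..
outer helix of 4 bp: ........((((...(((....))))))).
outer helix of 5 bp: .......(((((...(((....))))))))

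The log2 fold changes of these were 0.71, 0.08 and −0.08. The 5-bp structure had 1294 and 1266 in the inputs and 1499 and 977 in the m6A-IP libraries, so that the groups overlapped, and with values scaled to library totals its log2 fold change was 0.15. With a 3-nt hairpin loop in place of the 4-nt loop, the 4-bp structure had 927 and 945 in the inputs and 1458 and 1296 in m6A-IP (log2 fold change 0.55, limma adjusted p = 0.047). The 5-bp structure with that loop and the 4-bp structure with a 5-nt loop, also among the most abundant, had log2 fold changes of 0.25 and 0.26 and did not pass. The 3-bp structure with that loop, which the naming rule had not picked and which was chosen after its values were seen, had 449 and 463 against 972 and 936 (log2 fold change 1.06, SE 0.14, limma adjusted p = 0.014).

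Hairpin loop size went with the gain over all opening-strand members but less so once the inner helix was fixed. Shares were 1.68-fold and 1.74-fold higher with a 3-nt loop (95 structures, 46 enriched and none depleted by limma, against 12.5% and 27.2% of all structures), 1.39-fold and 1.33-fold with 4 nt, 1.25-fold and 1.28-fold with 5 nt, and 1.12-fold and 1.07-fold with 6 nt or more. Inner helices of 2 bp never closed a 3-nt loop. At an inner helix of 3 bp the shares were 1.64-fold and 1.73-fold with a 3-nt loop, 1.43-fold and 1.38-fold with 4 nt, 1.57-fold and 1.62-fold with 5 nt, and 1.54-fold and 1.49-fold with 6 nt or more, with no order by size.

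The 5 enriched members with the largest log2 fold changes all had an inner helix of 3 bp. They are shown in the order of their log2 fold changes, to set them against the depleted members.
enriched 1: .....(.(((.....(((...)))))).).
enriched 2: .......((.((...(((...)))))))..
enriched 3: .....(.((((....(((...))))))).)
enriched 4: ......((.((....(((...))))).)).
enriched 5: ....(((.(......(((....)))).)))

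In each of these the stem outside the bulge was interrupted by a further unpaired nucleotide on its 5′ strand. The first had 13.5 and 7.02 in the inputs and 34.4 and 55.4 in m6A-IP, a log2 fold change of 1.71 (SE 0.38, limma adjusted p = 0.030). The second had 6.74 and 12.3 against 39.5 and 41.6, a log2 fold change of 1.68 (SE 0.34, limma adjusted p = 0.024). The fourth had 23.9 and 26.3 against 76.7 and 83.2, a log2 fold change of 1.5 (SE 0.21, limma adjusted p = 0.014). The third and the fifth had log2 fold changes of 1.53 and 1.47. All of them were rare structures, with both m6A-IP values above both inputs. The lowest mean value over all libraries in the table was 16.8. All except the structure with 23.9 and 26.3 in the inputs had lower input means, at 10.3, 9.51, 7.79 and 7.17. They were therefore in the table only through their m6A-IP values, and equally rare folds without a gain were absent. Whether this selection shaped the features shared by the list was not tested. A more abundant member outside the naming rule, chosen after its values were seen, had a 4-bp inner helix and a 5-nt bulge, with 70.5 and 64.9 in the inputs and 203 and 180 in m6A-IP (log2 fold change 1.43, SE 0.17, limma adjusted p = 0.014).
5-nt bulge, 4-bp inner helix: .......(((.....((((...))))))).

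Over all opening-strand members, the 88 with a break in the 5′ strand of the outer stem had shares 1.66-fold and 1.81-fold higher, and the 150 without a break 1.38-fold and 1.37-fold higher. Enriched members numbered 33 and 41 in these groups and depleted members 1 and 13, against 12.5% enriched and 27.2% depleted of all structures. The enriched members with a break included those with input means of 10.3, 9.51, 7.79 and 7.17. These were under the lowest mean value of 16.8, so they were in the table only through their m6A-IP values. The counts of the 2 groups are therefore not a fair comparison, and the effect of this selection was not tested. A break shortens the outer helix next to the bulge, so the split overlaps with that by outer helix length.

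The 5 depleted members with the lowest log2 fold changes all had an inner helix of 2 bp and an outer helix of 4 bp or more without a break.
depleted 1: .....(((((((...((....)))))))))
depleted 2: ......(((((....((.....))))))).
depleted 3: .....((((((....((.....))))))))
depleted 4: ........((((...((....))))))...
depleted 5: ......((((((...((.....))))))))

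The first had 41.0 and 53.8 in the inputs and 24.3 and 6.93 in m6A-IP (log2 fold change −1.47, SE 0.47, limma adjusted p = 0.066), with a single read behind the last value. The second had 148 in each input and 73.9 and 62.4 in m6A-IP, a log2 fold change of −1.07 (SE 0.18, limma adjusted p = 0.018). The fourth had 231 and 258 against 158 and 97.0, a log2 fold change of −0.95. The third and the fifth had log2 fold changes of −1.0 and −0.95. In all of them both m6A-IP values were below both inputs. The limma calls of these and of the enriched structures were not stable when an input library was left out. Such a fit leaves 1 library in a group, so only median log2 fold changes are given. Over these 5 the median was −1.03 without either input, −1.29 without m6A-IP 11 and −0.82 without m6A-IP 12. The 7 enriched structures picked by the naming rule had 1.40 and 1.52 without inputs 11 and 12. Without m6A-IP 11 and 12 they had 1.64 and 1.40.

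Position 15 as the last bulged nucleotide was also set beside larger opening-strand bulges that ended elsewhere in the RNA. Bulges ending at position 8 had shares 0.547-fold and 0.559-fold those of the inputs (242 structures, none enriched by limma and 130 depleted), at position 9 0.644-fold and 0.645-fold, at position 10 0.751-fold and 0.753-fold, and at position 11 0.984-fold and 1.01-fold (exact permutation p = 1.0 for the shares). Those ending at position 12 had 1.06-fold and 1.01-fold, at position 13 1.07-fold in both reactions (404 structures, 49 enriched and 77 depleted), and at position 14 1.13-fold and 1.09-fold (208 structures, 33 enriched and 27 depleted). On the deposited scale the libraries overlapped for the ends at 12, 13 and 14 (exact permutation p = 1.0 for each). The end at position 15, at 1.41-fold in both reactions, was the highest of the 12 ends from position 4 to 15. On the log2 scale of shares it was at 0.49, and the other 11 ends had a median of −0.41 and a range of −0.85 to 0.15.

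The 8 closing-strand members place the hairpin loop on the 5′ side of the bulge, so that the bases directly after the bulge belong to the outer helix. Their summed values were 1635 and 1627 in the inputs and 1810 and 1615 in m6A-IP, and their share was 1.16-fold and 1.31-fold higher. None of the 8 passed the limma threshold, and m6A-IP 12 was below both inputs on the deposited scale. The opening-strand members were above them by 0.19 on the log2 scale (0.29 and 0.10). The most abundant ones at 3 nt, 4 nt and a larger size are shown.
closing, 3-nt bulge 13 to 15: ((((((...)))...)))............
closing, 4-nt bulge 12 to 15: (((((....))....)))............
closing, 6-nt bulge 15 to 20: (((((((...))))......))).......

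The 3-nt structure had 827 and 800 in the inputs and 965 and 859 in m6A-IP (log2 fold change 0.16), and the 4-nt structure had 406 and 427 against 442 and 367 (−0.05, or 0.18 with library totals). The 6-nt structure, in which position 15 was the 5′-most bulged nucleotide, had 36.3 and 41.5 against 68.0 and 48.5, a log2 fold change of 0.51. Only the 2 structures with 15 at the 5′ end of the bulge and the 1 with 15 in its middle bear on the place of position 15, and their sums were 58.1 and 63.7 against 86.3 and 69.3 for the former, and 14 and 20.5 against 14.2 and 20.8 for the latter. A single read was worth 6.93 in m6A-IP 12, so the value of the middle place there rests on few reads and no pattern can be read from it. The place within the bulge could not be separated from the strand with so few structures.

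A single nucleotide placed opposite the bulge turns it into an interior loop. There were 54 pairs of structures that differed by that nucleotide, with a median log2 fold change of 0.30 for the bulges and 0.32 for the loops. The loop was higher in 30 pairs and the bulge in 24. With an inner helix of 2 bp the loop was higher in 17 of 19 pairs (median difference 0.20), and with 3 bp the bulge was higher in 21 of 34 (median of the loop minus the bulge, −0.07). The direction also turned with bulge size, a split that overlaps in part with that by inner helix. Every pair of 5 nt or more had a 3-bp inner helix, while most pairs of 3 nt had 2 bp. The turn was also present within the 3-bp inner helix alone. There, pairs of 3 nt went almost evenly both ways and most pairs of 4 nt had the higher loop. Most pairs of 5 nt or more had the higher bulge. The loop was higher in 21 of 31 pairs at 3 nt and in 7 of 8 at 4 nt, whereas the bulge was higher in 5 of 6 pairs at 5 nt, in 2 of 3 at 6 nt and in both pairs at each of 7, 8 and 9 nt.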

How the data were processed

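In vitro methylated RNA was sequenced as 2 input and 2 m6A-IP libraries, grouped by their labels. The authors trimmed adapters with cutadapt 1.9.1, kept 30-nt reads with an intact nonamer, predicted folds with RNAfold, summed reads per fold and divided them by DESeq2 1.18.1 size factors. The deposited values are this normalized signal, not raw counts. The columns of the authors' own comparison (mean, log2 fold change, its error, test statistic and p-values) were not used. All values were whole multiples of 1 read's worth (tolerance 0.001), and reads were recovered from these for depth and shares only. The lowest mean value in the table was 16.8, so rarer folds are not represented.

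Each structure was classed by the loop that holds position 15. limma 3.58.1 (R 4.3.3, trended variance) compared m6A-IP with input on log2(value + 5), which understates changes of rare structures, and was tested on simulated data. Class values were sums per library, compared by an exact two-sided permutation test (Python 3.11.15). Libraries with the same number were taken to come from the same reaction, which the labels do not state. Deviations of inputs and m6A-IP libraries from their group means were hardly correlated (r = 0.015 across structures). The structures named were the most abundant member per size class and strand, the 5 most enriched, the 5 most depleted and the next 5 by abundance. Members and lists were chosen with earlier results of these data known. Matched series, splits within an inner helix length and the per-reaction counts were added after seeing the data. With duplicate reactions of 1 RNA pool, p-values measure the spread between reactions only.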

Additional observations from a re-analysis of the deposited data

How the results depend on the processing

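The planned count tests (edgeR and DESeq2 on recovered reads) were not run: the deposited values were treated as a normalized signal and not as counts, although whole reads could be derived from them. Of 74 enriched and 14 depleted members, pseudocounts of 1 and 20 gave 71 and 12, and 76 and 15, and a mean of at least 20 gave 69 and 13 of 224. Pairing the libraries by reaction (replicate block) gave 64 and 16. Library totals gave 120 enriched. Leaving out 1 library gave 5 to 150 enriched and 0 to 74 depleted. Such fits leave 1 library in a group and the calls over all structures moved as well, so these counts carry no conclusion. Median log2 fold changes of members and of all structures were 0.26 and −0.26 without input 11, and 0.27 and −0.27 without input 12. They were 0.10 and −0.40 without m6A-IP 11, and 0.44 and −0.11 without m6A-IP 12. Of 187 alternative values for the 21 named structures, 6 changed sign, all of structures with small changes. Leaving out 1 library gave −0.11 to 0.26 for ........((((...(((....))))))). and −0.019 to 0.53 for ......((((.....(((....))))))). as well as −0.18 to 0.084 for (((((....))....)))............ and −0.39 to 0.23 for .......(((((...(((....)))))))) and with library totals the last pair gave 0.18 and 0.15. Summed log2 ratios with library totals were 0.37 (3 nt), 0.55 (4 nt), 0.26 (middle place), 0.30 (closing strand) and 0.62 (3-bp inner helix). Leaving out 1 library gave −0.023 to 0.30 for 3 nt, −0.25 to 0.30 for the middle place and −0.014 to 0.15 for the closing strand. As a median over structures the middle place gave 0.018, the closing strand −0.015, and the differences from 1-nt bulges, interior loops and all others −0.54, 0.12 and 0.54. With both helices at least 2 bp the first 2 differences were −1.16 and 0.19, and without 1 library the difference from interior loops was 0.23 to 0.24. The cause of these changes was not tested. Depth in m6A-IP 12 limits single structures.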
